A study of Mus musculus with 6 samples.

Results

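The S100 genes described here were S100a8, S100a9, S100a6, S100a4, S100a10, S100a11 and S100a13, chosen by symbol as 7 of the 32285 genes counted in single bone marrow cells. The cells came from female BALB/c mice aged 10 weeks at harvest and were enriched on magnetic beads for c-Kit, the stem cell factor receptor of blood progenitors. The groups compared held 3 mice each. Non-tumor-bearing mice (NTB) carried no tumor, whereas vehicle-treated mice (Veh) and brequinar-treated mice (BRQ) both carried 4T1 tumors, grown from a mouse mammary carcinoma line placed in the mammary gland of the same inbred strain. Brequinar blocks dihydroorotate dehydrogenase, an enzyme of pyrimidine synthesis, and was given from the time tumors could be measured. Each of 3 pools held 1 mouse of each group, told apart by hashtag antibodies, so a replicate number marks the pool that 3 mice shared.

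S100 proteins are small EF-hand proteins that change shape on binding calcium and then bind partner proteins. S100A8 and S100A9 pair to form calprotectin, which fills the cytoplasm of neutrophils, chelates metal ions needed by microbes and, once released, signals through TLR4 and the receptor RAGE; both genes are widely used to mark neutrophils and suppressive myeloid cells in tumor-bearing mice. S100A10 binds annexin A2 and S100A11 binds annexin A1 at membranes, S100A6 (calcyclin) binds the calcyclin-binding protein, S100A4 binds non-muscle myosin, and S100A13 takes part in the release of FGF1 and interleukin-1 alpha.

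All 7 genes lie on mouse chromosome 3 (GRCm38). S100a13 (90514435-90524581), S100a4 (90603771-90606045), S100a6 (90612882-90624181), S100a8 (90668978-90670035) and S100a9 (90692632-90695721) fall within 181.3 kb, and S100a11 (93520488-93526287) and S100a10 (93555080-93564643) fall within 44.16 kb of each other. S100a9 is on the minus strand and the other members are on the plus strand. S100a8 and S100a9 together span 26.74 kb. Reads from S100a11 could be shared with its pseudogene copy, so its levels are less certain.

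The promoters of 4 members are printed because the report turns on them: S100a8 and S100a9 kept nearly the same pattern over cell clusters, whereas S100a6 and S100a11 separated the neutrophil clusters. Each runs 5′ to 3′ on the strand of its gene, from 250 bases before to 50 bases after the annotated start (RefSeq, GRCm38.p6), at chr3:90668821-90669120, chr3:90695672-90695971 (minus strand), chr3:90612644-90612943 and chr3:93520246-93520545 in that order. Capitals mark the motifs that were searched on both strands.
S100a8: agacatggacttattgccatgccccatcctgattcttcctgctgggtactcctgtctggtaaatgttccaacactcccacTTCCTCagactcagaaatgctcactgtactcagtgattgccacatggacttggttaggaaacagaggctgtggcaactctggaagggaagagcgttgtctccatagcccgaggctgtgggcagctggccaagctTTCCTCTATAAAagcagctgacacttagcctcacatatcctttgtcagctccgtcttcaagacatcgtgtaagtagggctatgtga
S100a9: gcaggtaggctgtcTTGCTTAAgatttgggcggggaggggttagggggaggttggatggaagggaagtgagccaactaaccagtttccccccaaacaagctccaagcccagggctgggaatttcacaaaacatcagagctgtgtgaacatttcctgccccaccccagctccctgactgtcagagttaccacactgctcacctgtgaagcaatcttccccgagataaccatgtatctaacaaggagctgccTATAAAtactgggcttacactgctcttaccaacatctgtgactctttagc
S100a6: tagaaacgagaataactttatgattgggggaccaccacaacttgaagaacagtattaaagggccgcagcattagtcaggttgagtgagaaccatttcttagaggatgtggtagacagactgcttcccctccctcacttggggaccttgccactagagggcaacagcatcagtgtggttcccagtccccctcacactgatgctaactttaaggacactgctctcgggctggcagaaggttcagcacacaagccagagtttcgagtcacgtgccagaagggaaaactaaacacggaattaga
S100a11: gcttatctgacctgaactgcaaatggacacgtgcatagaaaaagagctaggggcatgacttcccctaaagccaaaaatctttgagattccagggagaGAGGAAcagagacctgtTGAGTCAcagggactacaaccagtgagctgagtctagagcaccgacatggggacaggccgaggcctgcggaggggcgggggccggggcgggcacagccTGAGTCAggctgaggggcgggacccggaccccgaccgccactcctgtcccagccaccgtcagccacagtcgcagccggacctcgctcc

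The motifs were TTGCNNAA for C/EBP factors, GAGGAA for PU.1, TGANTCA for AP-1, TTCNNNGAA for STAT factors and TATAAA for the TATA box. The S100a8 window held GAGGAA on the opposite strand at -170 and -36 from the start and TATAAA at -30, where the second PU.1 match abuts the TATA box. The S100a9 window held a C/EBP match at -236 and TATAAA at 1, and the S100a11 window held a PU.1 match at -153 and AP-1 matches at -136 and -38. The S100a6 and S100a13 windows held none of the 5 motifs, and the S100a4 window held a PU.1 match at 20 and TATAAA at -31. Of 27025 promoters of the same length, 10.75% held the C/EBP motif, 28.31% the PU.1 motif, 7.933% the AP-1 motif, 8.466% the STAT motif and 14.16% the TATA box, compared with 1, 3, 1, 0 and 3 of the 6 members in the promoter table. S100a10 was not among the promoters used here. These are matches of letters and were not tested as sites.

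The 3 pools held 11441 to 14297 barcodes and 100700982 to 135564079 gene UMIs (unique molecular identifiers, each a counted RNA molecule). Hashtags and cell filters left 15966 cells, of which 4308 were from NTB, 4423 from Veh and 7235 from BRQ mice, with 382 (Veh replicate 2) to 2780 (Veh replicate 1) per mouse. Between 38 and 48 barcodes were shared by a pair of pools. Clusters were drawn without any S100 gene over all 32762 barcodes that passed the cell filters, with or without a single hashtag. They were named only from fixed markers and are called "X-like". Levels given for a whole cluster are over those barcodes, and values by mouse and tests are over the 15966 cells. The enrichment label held in part: Kit had a median of 215.7 CPM (a gene's UMIs in every 1000000 UMIs of those cells) over mice in hematopoietic stem and multipotent progenitor (HSC/MPP)-like cells and 87.6 CPM in granulocyte-monocyte progenitor (GMP)-like cells, but 21.83 CPM in neutrophil-like cells, which were 3912 of the 15966 cells.

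Members differed in the cell class in which they were highest. S100a8, S100a9, S100a6, S100a11 and S100a13 had their highest mean CPM in neutrophil-like cells. S100a10 and S100a4 had theirs in monocyte/MDP-like cells (monocytes and monocyte-dendritic cell progenitors). For S100a13 and S100a4 the top class depended on the processing. S100a13 was highest in GMP-like cells with the cell limits applied to UMIs instead of genes (261.1 CPM). The same held with S100 genes kept in the clustering (220.7 CPM). S100a4 was highest in lymphoid progenitor-like cells (38.67 CPM) when fewer cells per mouse were required. Values are means ± SD over the mice with at least 20 cells of a class, with all 3 groups together. Since the 3′ ends of transcripts were counted, levels were compared between cell classes for a gene and not between genes.

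S100a8 was at 97420 CPM ± 13080 (SD, n = 9) in neutrophil-like cells, 16430 ± 9256 (n = 4) in macrophage-like cells and 5160 ± 889 (n = 9) in GMP-like cells. It was lowest in monocyte/MDP-like cells, at 567.9 CPM ± 184 (n = 9), below the 2255 ± 2822 (n = 6) of erythroid-like cells. S100a9 kept the same order at these 5 classes, with 137200 CPM ± 18420 (n = 9) in neutrophil-like and 12160 ± 2443 (n = 9) in GMP-like cells. The macrophage-like means rest on few cells, since the median macrophage-like cell held 0.473% of its UMIs from the 2 genes and the median GMP-like cell 1.044%, the reverse of the order of the means.

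S100a6 was at 3693 CPM ± 2905 (n = 9) in neutrophil-like cells and at 8.802 CPM in GMP-like cells, its lowest mean of 9 classes. S100a11 was at 2361 CPM ± 831 (n = 9) in neutrophil-like cells, 795.7 CPM in GMP-like cells and 95.12 CPM in erythroid-like cells. S100a13 had the narrowest range of the 7 by ratio, from 245.9 CPM ± 49.84 (n = 9) in neutrophil-like cells to 46.26 CPM in erythroid-like cells. By whole cluster, it was higher in an unnamed cluster led by Fcnb (306.4 CPM) than in any neutrophil-like cluster (176.6 to 256.4 CPM).

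S100a10 ran the other way: it was at 268 CPM ± 24.22 (n = 9) in monocyte/MDP-like cells, 226 ± 96.15 (n = 7) in the basophil, mast cell and eosinophil class and 158.1 in HSC/MPP-like cells, but at 24.43 CPM in GMP-like and 4.774 CPM in neutrophil-like cells. Within the basophil class, the cluster led by Prss34 and Mcpt8 was at 309.1 CPM and the one led by the eosinophil genes Prg2 and Epx was at 48.3 CPM. S100a4 was at 33.45 CPM ± 10.89 (n = 9) in monocyte/MDP-like and 26.85 CPM in HSC/MPP-like cells, and at 0.5918 CPM in neutrophil-like cells. The highest S100a4 of any cluster of at least 50 barcodes, 385.8 CPM, was in 199 barcodes led by the class II antigen presentation genes H2-Aa and Cd74, a cluster with no fixed name, 83 of whose barcodes had a mouse (407 CPM in those); S100a10 was at 548.4 CPM there.

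Neighbours in these orders were compared within mice by an exact sign-flip permutation test (two-sided, Benjamini-Hochberg over 56 pairs of classes). With 9 mice, the most any pair had, the smallest p is 0.003906, and with the mice of these pairs none of the 56 could pass the adjustment whatever its values, so the test does not say which neighbours differ. S100a11 was higher in neutrophil-like than in GMP-like cells in 9 of 9 mice (log2 difference 1.49, exact permutation p = 0.003906, adjusted p = 0.2188), and S100a13 in 8 of 9 (0.20, exact permutation p = 0.007812). In all, 4 pairs were under an unadjusted p of 0.05.

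**Figure D1:**
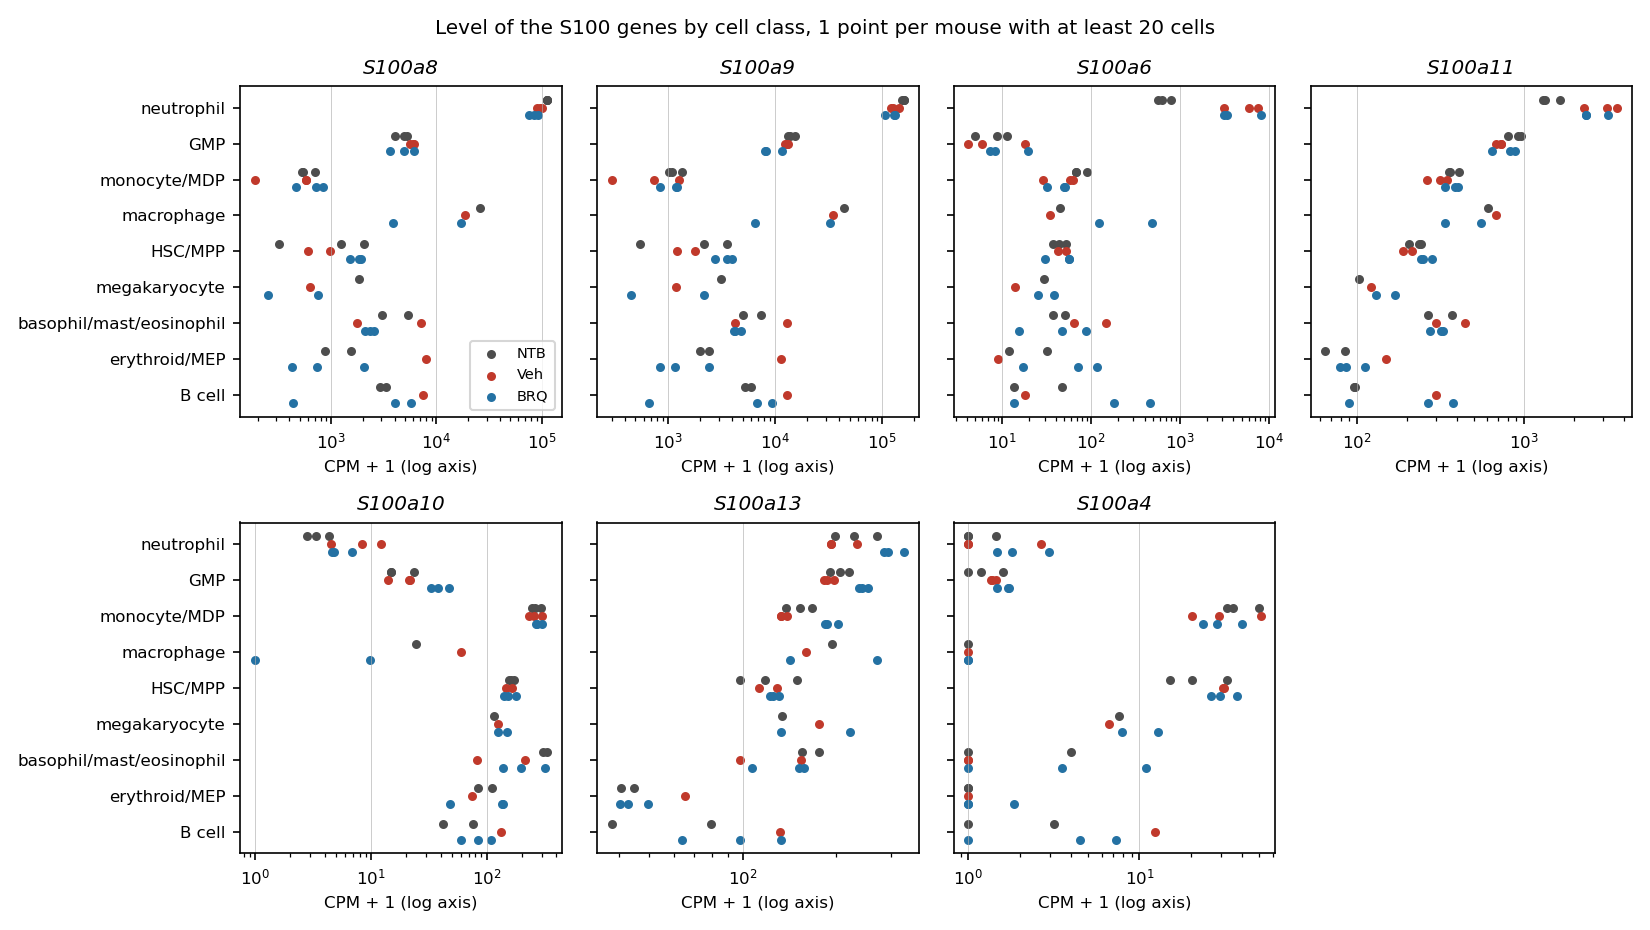
Level of each S100 gene by cell class, in CPM + 1 on a log axis, with 1 point per mouse that had at least 20 cells of the class and colours for NTB, Veh and BRQ. S100a8 and S100a9 stand highest in neutrophil-like cells, and S100a10 and S100a4 in monocyte/MDP-like cells, with S100a10 at 4.774 CPM on average in neutrophil-like cells.

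Erythroid-like and B-like cells, which should not make calprotectin, were used to judge free RNA. In the median erythroid-like cell of a mouse, S100a8 and S100a9 together were 0.05397% to 0.1138% of UMIs, and in the median B-like cell 0.09337% to 0.2085%. The same share was 15.75% to 29.34% in neutrophil-like cells and 0.2885% to 1.363% in GMP-like cells, both above every erythroid-like and B-like value. HSC/MPP-like cells, at 0.07101% to 0.125%, megakaryocyte-like cells, at 0.07214% to 0.1182%, and monocyte/MDP-like cells, at 0.0415% to 0.1063%, overlapped the erythroid-like range, so their calprotectin UMIs were not distinguishable from background.

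The class means hid this, because a few cells carried most of the signal. A single erythroid-like cell reached 20.58% and a single B-like cell 19.13%, against 0.2862% and 0.5456% at their 90th percentiles. Mean S100a8 in erythroid-like cells fell from 38.6 to 10.86 UMIs per cell when cells marked by the doublet caller Scrublet were left out, and to 20.1 without Veh replicate 1. The means of 2255 CPM in erythroid-like cells and 3969 CPM in B-like cells rest on those few cells. Macrophage-like cells, at 0.279% to 0.5742%, and the basophil class, at 0.1074% to 2.503%, reached above the B-like range. Thinned to 2000 UMIs per cell, 49.33% to 54% of erythroid-like and 48.56% to 50.81% of monocyte/MDP-like cells held an S100a8 UMI over the 3 groups, compared with 81.02% to 86.48% of GMP-like and 100% of neutrophil-like cells.

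The makeup of these UMIs differed between classes. For each S100a9 UMI, neutrophil-like cells held 0.6808 to 0.7332 S100a8 UMIs over the 3 pools, each of which mixes the groups, GMP-like cells 0.4089 to 0.4942, erythroid-like cells 0.4556 to 0.6727 and B-like cells 0.5635 to 0.6678. Camp, a secondary granule peptide of maturing neutrophils, stood at 35.42 to 40.94 UMIs per 100 S100a8 UMIs in neutrophil-like cells and 28.46 to 37.28 in erythroid-like cells, but at 2.314 to 3.402 in GMP-like cells. B-like cells held 35.84, 13.17 and 20.55 in pools 1 to 3. Erythroid-like and B-like cells were thus above GMP-like cells in Camp per S100a8 in every pool, and near the neutrophil-like ratio in erythroid-like cells and in pool 1 of the B-like cells, while the S100a8 to S100a9 ratio of erythroid-like cells in pool 2, 0.4556, lay within the GMP-like range.

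**Figure D2:**
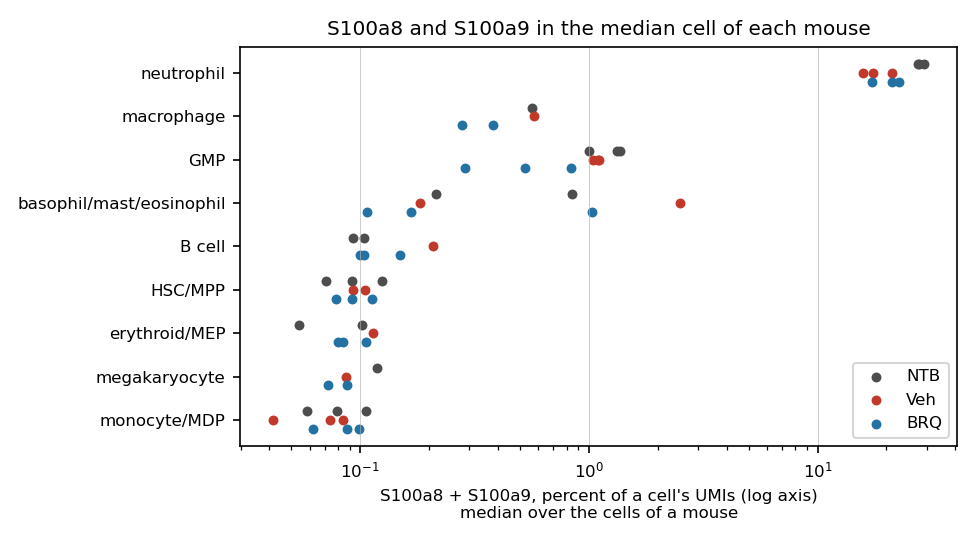
S100a8 and S100a9 as a percent of all UMIs in the median cell of each mouse, on a log axis, by cell class, with 1 point per mouse coloured by group. Neutrophil-like cells lie at 15.75% to 29.34% and GMP-like cells at 0.2885% to 1.363%, above the 0.05397% to 0.1138% of erythroid-like cells.

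Over 20 clusters of at least 50 barcodes, the genes most like each member were listed by Pearson's r of log2(CPM + 1), among 6142 genes; the clusters share libraries and depth, and no test was made. S100a8 and S100a9 had r = 0.9975 with each other. The nearest genes outside the family were the neutrophil genes Cd177 (0.9679), Pglyrp1 (0.9643) and Wfdc21 (0.9629) for S100a8, and Pglyrp1 (0.9763), Wfdc21 (0.9725) and Lrg1 (0.9566) for S100a9. For S100a6 they were Retnlg (0.95), Stfa2l1 (0.9356) and the gelatinase gene Mmp9 (0.935), and for S100a11 Lyst (0.9752), Hp (0.9648) and Mtus1 (0.96). S100a13 followed the cytoskeletal genes Sh3bgrl3 (0.9838), Tmsb4x (0.9454) and Tpm3 (0.9368).

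S100a10 was nearest to Ass1 (0.9362), Bmyc (0.9189) and Mndal (0.8962), and S100a4 to Phf11b (0.9053), Kmo (0.9041) and Fgd2 (0.8969). S100a4 and S100a10 had r = 0.762, whereas S100a8 and S100a10 had r = -0.622. The 7 genes therefore did not vary as a block over clusters, although 5 of them lie within 181.3 kb.

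The 3 groups were compared in 5 populations, on UMIs summed per mouse, with edgeR's quasi-likelihood test and Benjamini-Hochberg adjustment over all genes tested. Of 35 pairs of member and population, 32 passed the count filter; S100a4 did not in Ms4a3+ GMPs, neutrophil-like or basophil-class cells. The 3 comparisons share mice, since each group enters 2 of them. In Veh against NTB, 3 of the 32 pairs were called (2 higher, 1 lower), in BRQ against Veh 4 (3 higher, 1 lower) and in BRQ against NTB 7 (4 higher, 3 lower). Over the 5 populations together, 6.95%, 4.27% and 4.35% of all genes tested were called in these comparisons. With the pool as a replicate block the member counts were 10, 9 and 8, and 10.3%, 6.55% and 8.15% of all genes were called.

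Ms4a3+ GMPs are cells with a log-normalized value above 3 for Ms4a3, a gene of granulocyte-monocyte progenitors, and were taken irrespective of cluster. In them S100a9 was lower in both tumor-bearing groups than in NTB and lower again in BRQ than in Veh, S100a8 was lower in BRQ than in NTB, and S100a10 was higher in BRQ than in both other groups. Of all genes, 11.3% were called in Veh against NTB, 13.4% in BRQ against Veh and 6.01% in BRQ against NTB; of the 6 members tested, 1, 3 and 4 were called.

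S100a9, the larger subunit of calprotectin, was at 34800, 30860 and 30380 TMM-scaled CPM in NTB replicates 1 to 3, at 25160, 22490 and 22130 in Veh and at 21670, 15540 and 14750 in BRQ. The 3 groups did not overlap. The log2 fold change was -0.46 ± 0.13 (SE) in Veh against NTB (adjusted p = 0.02098), -0.43 ± 0.13 in BRQ against Veh (adjusted p = 0.02857) and -0.89 ± 0.13 in BRQ against NTB (adjusted p = 0.0002517). The call in Veh against NTB was lost without NTB replicate 1 or 2 or Veh replicate 2 or 3 (-0.39, -0.48, -0.43 and -0.42; adjusted p = 0.08915, 0.06597, 0.09892 and 0.09386), and that in BRQ against Veh without any 1 of the 3 Veh replicates (-0.37, -0.45 and -0.46; adjusted p = 0.1584, 0.06745 and 0.06167) or BRQ replicate 2 or 3 (-0.35 and -0.31; adjusted p = 0.08997 and 0.05533). That in BRQ against NTB was kept without any 1 mouse.

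S100a8 was at 14450, 12480 and 13920 TMM-scaled CPM in NTB, 12110, 11240 and 10930 in Veh and 11670, 7361 and 8406 in BRQ. NTB lay above both other groups, and Veh and BRQ overlapped. It was lower in BRQ than in NTB, with a log2 fold change of -0.57 ± 0.13 (adjusted p = 0.009172), and the changes of -0.25 ± 0.13 in Veh against NTB (adjusted p = 0.2268) and -0.32 ± 0.13 in BRQ against Veh (adjusted p = 0.1076) did not pass.

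Clusters made up the GMPs of each group unequally. The cluster led by Fkbp11 and Ctsg held 22.03% to 29.63% of Ms4a3+ GMPs in NTB, 44.64% to 48.87% in Veh and 47.71% to 65.39% in BRQ, and its S100a9 was 5414 CPM over all its barcodes, compared with 30850 CPM in the GMP-like cluster led by Vcam1 and Elane and 73510 CPM in the unnamed cluster led by Fcnb. Within the Fkbp11 cluster, S100a9 was at 5176, 6179 and 5796 CPM in NTB, 6090, 5861 and 6233 in Veh and 5654, 2798 and 8072 in BRQ, so the groups overlapped, as they did in the Vcam1 cluster, at 30480, 27770 and 26470 in NTB, 32830, 32730 and 30090 in Veh and 31860, 23910 and 29570 in BRQ. In the Fcnb cluster, without NTB replicate 1 and Veh replicate 2 for lack of cells, BRQ (63210, 59880 and 46260) lay below NTB (65120 and 64770) and Veh (70920 and 66260).

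S100a8 ran in the other order within the Vcam1 cluster, where it was at 9330, 8365 and 9025 CPM in NTB, 13760, 14510 and 13520 in Veh and 15180, 9894 and 16440 in BRQ, so that every tumor-bearing mouse lay above every NTB mouse. Over the Ms4a3+ GMPs in GMP-like clusters together, S100a8 changed by 0.17 in Veh against NTB (adjusted p = 0.5015), -0.44 in BRQ against Veh (adjusted p = 0.02918) and -0.27 in BRQ against NTB (adjusted p = 0.2932). For S100a9 the same cells gave -0.29 (adjusted p = 0.1932), -0.64 (adjusted p = 0.001751) and -0.92 (adjusted p = 0.0001721), and its groups did not overlap. With all cells of the GMP-like clusters, irrespective of Ms4a3, S100a8 was at 4104 to 5647 TMM-scaled CPM in NTB and 6141 to 6357 in Veh (0.37, adjusted p = 0.07372).

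When every mouse was weighted to the same share of cells per cluster, the log2 fold change of S100a9 was 0.07 in Veh against NTB (adjusted p = 0.7792), -0.35 in BRQ against Veh (adjusted p = 0.0395) and -0.27 in BRQ against NTB (adjusted p = 0.187), and that of S100a8 in BRQ against NTB was 0.06 (adjusted p = 0.9605). The 14 neutrophil markers, all measured, summed to 6478 to 7367 CPM in these GMPs in NTB, 3443 to 4947 in Veh and 3149 to 4799 in BRQ, with Il1b at 0 in at least 1 NTB mouse. Camp was lower with the sum, at 1957 to 2538, 584 to 1459 and 196.4 to 902.2, whereas Retnlg was higher, at 13.08 to 22.14, 28.76 to 78.97 and 51.26 to 116. Outside the mixed cluster described below for S100a6, Retnlg was at 10.48 to 21.6, 7.518 to 13.94 and 8.267 to 14.91. In the Ms4a3+ GMPs the median UMIs per GMP of a mouse were 10830 to 11580, 14740 to 17970 and 12170 to 15800. Weighting every mouse to equal cells in each of 5 bins of UMIs per cell gave -0.14, -0.62 (adjusted p = 0.00222) and -0.76 (adjusted p = 0.000867) for S100a9, and -0.43 (adjusted p = 0.07365) for S100a8 in BRQ against NTB. What part the cluster makeup, the neutrophil markers or depth had in the changes was not tested further.

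S100a10, whose protein holds annexin A2 at the cell surface, was at 5.451, 5.019 and 9.628 TMM-scaled CPM in NTB, 15.46, 5.014 and 11.84 in Veh and 20.58, 28.27 and 22.38 in BRQ. BRQ lay above every NTB and Veh mouse, while NTB and Veh overlapped. These values rest on 5, 8 and 20 UMIs in NTB, 230, 8 and 61 in Veh and 226, 261 and 281 in BRQ. S100a10 was higher in BRQ than in Veh by a log2 fold change of 0.85 ± 0.18 (adjusted p = 0.002096) and than in NTB by 1.72 ± 0.30 (adjusted p = 0.001362), and the 0.87 ± 0.33 of Veh against NTB did not pass (adjusted p = 0.09677). Both calls were kept in 22 of 22 alternatives, with equal cells per cluster at 1.14 (adjusted p = 0.022) and 1.29 (adjusted p = 0.036). Within the Fkbp11 cluster S100a10 was at 13.17, 12.58 and 16.68 CPM in NTB, 18.23, 6.634 and 17.76 in Veh and 29.86, 45.75 and 28.8 in BRQ, which again did not overlap the others.

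S100a6 was at 15.26, 10.04 and 18.77 TMM-scaled CPM in NTB, 25.4, 58.29 and 28.35 in Veh and 28.59, 58.38 and 77.8 in BRQ. It was higher in BRQ than in Veh (log2 fold change 0.80 ± 0.26, adjusted p = 0.0408) and than in NTB (1.88 ± 0.39, adjusted p = 0.004583). In Veh and BRQ mice most of these UMIs lay in a mixed cluster, which shared the neutrophil genes Retnlg and Mmp8. Scrublet marked 73.43% of its 1020 barcodes as doublets, and 84 of the 130 Ms4a3+ GMPs in it. The mixed cluster held 2.273% to 9.474% of the Ms4a3+ GMPs of a mouse. It held 67.81% to 93.55% of their S100a6 UMIs in Veh and BRQ mice, and 21.43%, 62.5% and 41.03% in NTB replicates 1 to 3. Outside it S100a6 was at 12.51, 3.931 and 11.55 CPM in NTB, 7.242, 4.085 and 9.496 in Veh and 7.257, 8.155 and 14.99 in BRQ, and the changes were 0.44 (adjusted p = 0.294) and 0.18 (adjusted p = 0.8348), so neither call was kept. With all GMPs, the call of BRQ against NTB was lost without NTB replicate 2 (1.65, adjusted p = 0.06918), and that of BRQ against Veh without any 1 of 6 mice, the lowest estimate being 0.51 without BRQ replicate 3 (adjusted p = 0.08978) and the highest adjusted p 0.3665 without Veh replicate 1 (0.52).

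S100a11 and S100a13 changed less. S100a11 was at 1123, 1066 and 940.7 TMM-scaled CPM in NTB, 845.1, 861.8 and 799.9 in Veh and 891.6, 937.7 and 653.4 in BRQ, and its log2 fold changes of -0.32 ± 0.11 in Veh (adjusted p = 0.06791) and -0.33 ± 0.11 in BRQ (adjusted p = 0.07831) against NTB did not pass. S100a13 was at 297.6, 244.7 and 249.8 in NTB, 227.1, 226.9 and 222.1 in Veh and 270.2, 267.1 and 235.6 in BRQ, and no change passed (adjusted p = 0.1394, 0.1468 and 0.9234). Outside the mixed cluster, where 11.5%, 13.6% and 6.07% of all genes were called in Veh against NTB, BRQ against Veh and BRQ against NTB, S100a11 passed in Veh against NTB (-0.35 ± 0.11, adjusted p = 0.04896).

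With the replicate block, all 6 members tested in Ms4a3+ GMPs passed in Veh against NTB, where that fit called 16.4% of all genes, beside 20.4% in BRQ against Veh and 11.8% in BRQ against NTB. The log2 fold changes were 0.90 for S100a10 (adjusted p = 0.04391), 1.34 for S100a6 (adjusted p = 0.0002972), -0.25 for S100a8 (adjusted p = 0.03102), -0.31 for S100a11 (adjusted p = 0.001961), -0.22 for S100a13 (adjusted p = 0.0393) and -0.46 for S100a9 (adjusted p = 4.787e-05). In BRQ against Veh the block also called S100a8 (-0.34, adjusted p = 0.001911) and S100a13 (0.19, adjusted p = 0.02997), and in BRQ against NTB S100a11 (-0.34, adjusted p = 0.0007859).

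**Figure D3:**
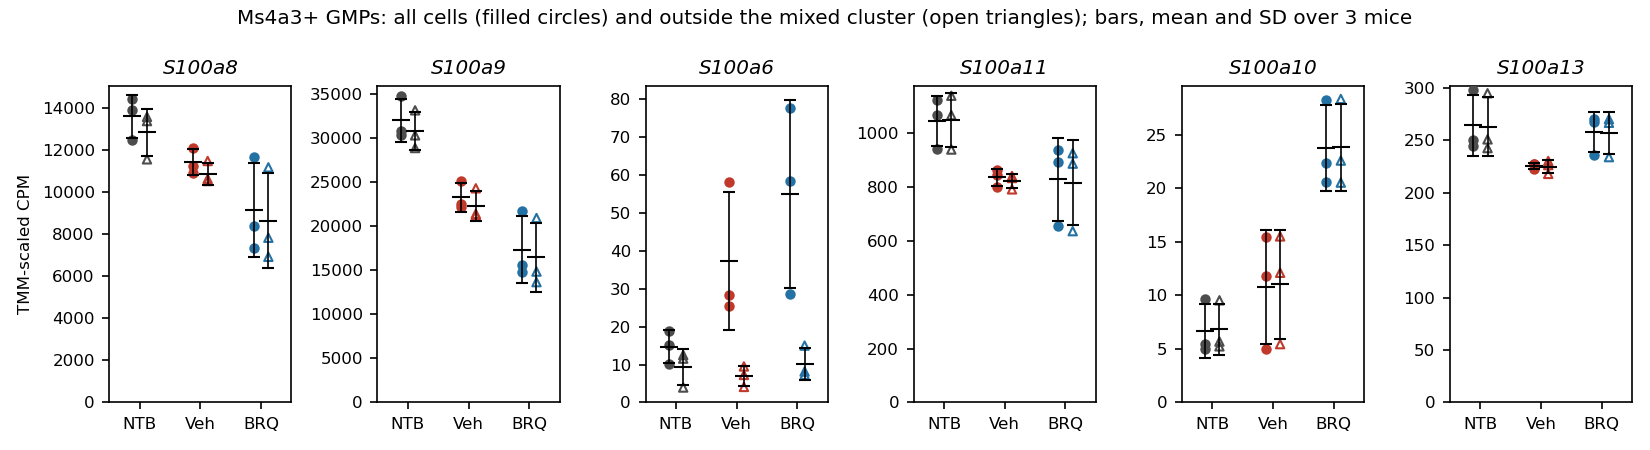
TMM-scaled CPM of 6 S100 genes in the Ms4a3+ GMPs of each mouse, by group; filled circles are all Ms4a3+ GMPs, open triangles those outside the mixed cluster, and bars give the mean and SD over 3 mice. S100a9 falls from 30380 to 34800 CPM in NTB to 14750 to 21670 in BRQ, S100a10 in BRQ (20.58 to 28.27) lies above all other mice, and the S100a6 triangles lie at 3.931 to 14.99 CPM.

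In neutrophil-like cells the calprotectin genes did not pass in any comparison, whereas S100a6 and S100a11 were higher in both tumor-bearing groups than in NTB. The background was 15.1% of genes called in Veh against NTB, 0.0346% in BRQ against Veh and 6.7% in BRQ against NTB. Of the 6 members tested, 2, 0 and 2 were called. In BRQ against Veh 1 member was under an unadjusted p of 0.05 and DESeq2 called 0.

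S100a6 was at 674.3, 845 and 564.3 TMM-scaled CPM in NTB, 3295, 5746 and 7336 in Veh and 3389, 3138 and 7620 in BRQ. Every Veh and BRQ mouse lay above every NTB mouse. The log2 fold change was 2.97 ± 0.38 in Veh (adjusted p = 0.0009408) and 2.76 ± 0.38 in BRQ (adjusted p = 0.004704) against NTB, and -0.21 in BRQ against Veh (adjusted p = 0.8949). The BRQ call was lost without NTB replicate 3 (2.63, adjusted p = 0.07793).

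S100a11, which binds annexin A1, was at 1446, 1748 and 1294 TMM-scaled CPM in NTB, 2412, 3465 and 3065 in Veh and 2369, 2378 and 2984 in BRQ. Here too NTB lay below every other mouse, with log2 fold changes of 0.99 ± 0.20 in Veh (adjusted p = 0.00708) and 0.78 ± 0.20 in BRQ (adjusted p = 0.03718). The Veh call was lost without NTB replicate 3 (0.89, adjusted p = 0.05385). That of BRQ was lost without NTB replicate 1, 2 or 3, Veh replicate 2 or BRQ replicate 1 or 3, with adjusted p-values from 0.05657 (without Veh replicate 2, 0.78) to 0.195 (without NTB replicate 3, 0.69). Within clusters 1, 3 and 6, the 3 into which these cells fell, no S100a11 change was called: it was 0.08, -0.02 and 0.08 in Veh and 0.25, 0.02 and 0.04 in BRQ against NTB, and with equal cells per cluster in every mouse it turned to -0.05 and -0.03.

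S100a8 was at 122400, 118200 and 111000 TMM-scaled CPM in NTB, 105300, 85620 and 93960 in Veh and 85590, 92610 and 71660 in BRQ, with log2 fold changes of -0.30 in Veh (adjusted p = 0.3696) and -0.49 in BRQ (adjusted p = 0.2044) against NTB. S100a9 was at 172900, 168700 and 152200 in NTB, 152700, 119800 and 119300 in Veh and 129800, 132200 and 101100 in BRQ. NTB lay above every tumor-bearing mouse for S100a8, and above all but Veh replicate 1 for S100a9, and the fit called neither difference.

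Neutrophil-like cells formed 3 clusters, and NTB cells fell mostly in another cluster than tumor-bearing cells. Cluster 3, led by the granule genes Camp, Ngp and Ltf, held 57.92% to 65.22% of neutrophil-like cells in NTB, 4.32% to 23.9% in Veh and 6.452% to 30.81% in BRQ. Cluster 1, led by genes of late neutrophils such as Retnlg, Il1b and Cxcr2, held 6.193% to 9.729%, 63.52% to 89.2% and 44.86% to 79.95%. S100a6 rose over the clusters from 90.3 CPM in cluster 3 to 2165 in cluster 6, led by Ifitm6 and Ly6g, and 12410 in cluster 1, and S100a11 from 1300 to 1827 and 4993. S100a8 was instead at 97510, 117400 and 82450 CPM. The median UMIs per cell of a mouse were 1353 to 2032.5 in NTB, 1447.5 to 1533 in Veh and 1504 to 2237 in BRQ in cluster 1, and 5974 to 6801, 1581 to 2183 and 2650 to 4384 over all neutrophil-like cells.

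Within cluster 1, which NTB replicate 1 did not enter for lack of cells, S100a6 was at 10950 and 11360 TMM-scaled CPM in NTB, 11690, 9716 and 11060 in Veh and 13550, 15000 and 13230 in BRQ. NTB and Veh overlapped, BRQ lay above both, and edgeR called no S100a6 change (-0.04, 0.36 with an adjusted p of 0.1602, and 0.32). That of BRQ against Veh was called with the replicate block (0.36, adjusted p = 0.03187), a fit that called 7.77% of all genes, and by DESeq2 (0.35, adjusted p = 0.02864). Within cluster 3, which Veh replicate 2 did not enter, the S100a6 changes were -0.11, -0.36 and -0.47 and none was called. With equal cells per cluster in every mouse the S100a6 change was -0.10 in Veh (adjusted p = 0.8795) and 0.15 in BRQ (adjusted p = 0.7812) against NTB. Cluster 6, also without Veh replicate 2, was the exception: S100a6 was at 1083, 1873 and 1091 in NTB, 2853 and 3368 in Veh and 3097, 2673 and 3574 in BRQ, with log2 fold changes of 1.19 ± 0.20 (adjusted p = 0.0002379) in Veh and 1.20 ± 0.18 (adjusted p = 5.114e-05) in BRQ against NTB.

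S100a13 passed within clusters and not over all neutrophil-like cells. In cluster 1 it was at 214.7 and 100.9 TMM-scaled CPM in NTB, 117, 142.8 and 126.5 in Veh and 220.2, 279.6 and 200.5 in BRQ, and BRQ lay above Veh (log2 fold change 0.85 ± 0.18, adjusted p = 0.002048). In the same cells the 14 neutrophil markers summed to 54980 to 61310 CPM in NTB, 34430 to 41770 in Veh and 50210 to 60340 in BRQ, and Ly6g was at 1328 to 1343, 504.5 to 727.2 and 1246 to 1739. Lcn2, Ltf and Retnlg were also lowest in Veh. Il1b was instead higher in Veh than in BRQ, at 489 to 1315, 1232 to 1447 and 809.2 to 1146, and Camp, Ngp, Cebpe and Fcnb overlapped between Veh and BRQ. The part of these markers in the S100a13 difference was not tested. In cluster 3 it was at 298.7, 238.2 and 201.4 in NTB, 299.8 and 341.8 in Veh and 382.1, 334.5 and 410.9 in BRQ, and BRQ lay above NTB (0.64 ± 0.13, adjusted p = 0.001172).

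The calprotectin genes fell in BRQ against NTB within cluster 3 and not within cluster 1. S100a8 was at 119600, 110400 and 105200 TMM-scaled CPM in NTB, 99050 and 110400 in Veh and 73900, 75910 and 48250 in BRQ, and all BRQ mice lay below all others. The log2 fold change of BRQ against NTB was -0.76 ± 0.17 (adjusted p = 0.002071) for S100a8 and -0.58 ± 0.17 (adjusted p = 0.02143) for S100a9. The sum of the 14 neutrophil markers in cluster 3 was lower alongside, at 110100 to 119700 CPM in NTB, 78800 to 90100 in Veh and 44590 to 79090 in BRQ. Camp followed it, at 49870 to 59610, 32550 to 43340 and 11200 to 31170. So did Ngp, at 33570 to 39610, 27780 to 29070 and 15010 to 29380, Ltf, at 5078 to 5891, 2418 to 2973 and 2293 to 3644, and Ly6g, at 462.7 to 559.1, 175.4 to 285.2 and 189.9 to 391.6. Lcn2, at 7025 to 7947, 7542 to 8145 and 7258 to 7892, Cebpe, at 579.4 to 723, 584.6 to 754.8 and 566.8 to 747.5, and Fcnb, at 1413 to 1682, 1129 to 1562 and 1533 to 2175, did not. Retnlg, at 49.43 to 217.5, 29.25 to 58.46 and 77.2 to 110.5, overlapped between NTB and BRQ. The part of these markers in the fall was not tested.

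In cluster 1, S100a8 was at 78850 and 81180 TMM-scaled CPM in NTB, 92920, 74010 and 78710 in Veh and 92030, 103800 and 82090 in BRQ. BRQ lay above NTB there, the reverse of cluster 3, and neither the 0.21 of BRQ against NTB (adjusted p = 0.8576) nor the 0.28 of S100a9 in BRQ against Veh (adjusted p = 0.4083, and 0.1139 with the replicate block) passed. In cluster 6 the -0.72 of S100a8 in BRQ against Veh did not pass in edgeR's fit (adjusted p = 0.161) without the replicate block and did with it (-0.83, adjusted p = 0.01048), as did S100a9 in BRQ against Veh (-0.75, adjusted p = 0.01366) and BRQ against NTB (-0.45, adjusted p = 0.03801). The fit with the block called 0.231% of all genes in BRQ against Veh and 1.66% in BRQ against NTB. DESeq2, run without a block, called 2 members in BRQ against Veh. The 14 neutrophil markers in cluster 6 summed to 122000 to 139000 CPM in NTB, 123200 to 141500 in Veh and 93680 to 118200 in BRQ. Ngp followed the sum, at 41570 to 43460, 41890 to 42930 and 24220 to 32580, whereas Lcn2, at 10430 to 13150, 14280 to 17700 and 15960 to 17950, and Ly6g, at 1592 to 1980, 1628 to 2021 and 2141 to 2654, did not, and their part in the cluster 6 values was not tested.

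The shares of all genes called in Veh against NTB, BRQ against Veh and BRQ against NTB were 2.63%, 5.59% and 0% in cluster 1, 5.59%, 0.314% and 9.36% in cluster 3, and 1.06%, 0.0963% and 2.52% in cluster 6. The members called were 0, 1 and 0 in cluster 1, 0, 0 and 3 in cluster 3, and 1, 0 and 1 in cluster 6. In BRQ against NTB in cluster 1, edgeR called 0 of 4940 genes with 383 at an unadjusted p under 0.05, and DESeq2 called 0. For the members, the counts at an unadjusted p under 0.05 were 0 and 1 in the comparisons of cluster 1 with 0 called, 1 and 2 in those of cluster 3, and 2 in that of cluster 6; DESeq2 called 0 and 0, 0 and 1, and 2 members.

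**Figure D4:**
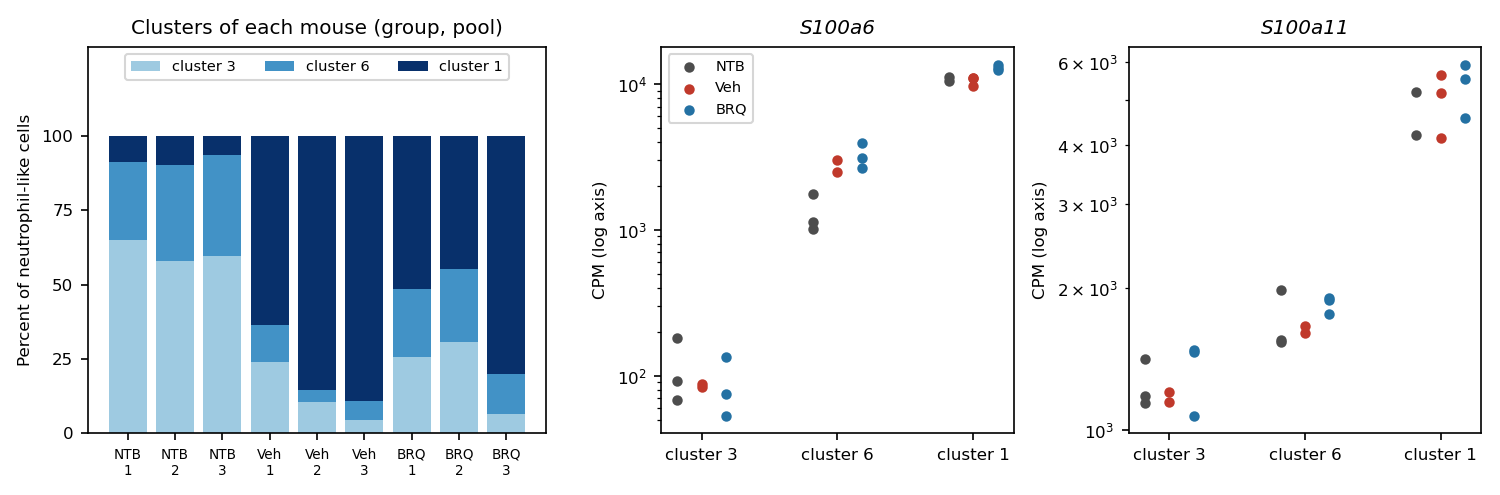
Percent of the neutrophil-like cells of each mouse in clusters 3, 6 and 1 (stacked bars), and S100a6 and S100a11 in CPM on a log axis for each mouse in those clusters, coloured by group. Cluster 1 holds 6.193% to 9.729% of the cells in NTB and 44.86% to 89.2% in tumor-bearing mice, and S100a6 climbs from cluster 3 to cluster 1 in every group.

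In monocyte/MDP-like cells, S100a6 was lower in BRQ than in NTB and S100a13 was higher in BRQ than in Veh. S100a6 was at 71.42, 69.45 and 88.95 TMM-scaled CPM in NTB, 61.09, 29.33 and 61.39 in Veh and 29.89, 47.4 and 46.24 in BRQ. All NTB mice lay above all others, and the log2 fold change of BRQ against NTB was -0.90 ± 0.17 (adjusted p = 0.00147). With free RNA, taken as the lower of the erythroid-like and B-like mean per cell in each pool, taken off, it was -1.54 and the call was lost (adjusted p = 0.1045); the S100a6 taken off was 0.1385, 0.7736 and 0.559 UMIs per cell in pools 1 to 3, means to which a few cells can contribute most. S100a13 was at 176.4, 140.7 and 151.2 in NTB, 139.9, 144 and 131.4 in Veh and 180.6, 179 and 185.4 in BRQ, where BRQ lay above every other mouse, and it was higher in BRQ than in Veh (0.40 ± 0.09, adjusted p = 0.01028), a call lost without Veh replicate 3 (0.36, adjusted p = 0.05339).

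No change of S100a10 or S100a4, the members highest in this class, passed. S100a10 was at 274, 301.4 and 242.1 TMM-scaled CPM in NTB, 317.6, 240 and 255.7 in Veh and 263.9, 290.9 and 242.8 in BRQ (log2 fold changes 0.02, -0.06 and -0.04). S100a4 was at 33.52, 50.73 and 34.31 in NTB, 53.3, 20 and 27.91 in Veh and 21.87, 26.68 and 35.57 in BRQ. The background was 3.6%, 5.34% and 3.03% of genes called in Veh against NTB, BRQ against Veh and BRQ against NTB, against 0, 1 and 1 of the 7 members. In Veh against NTB 3 members were under an unadjusted p of 0.05 and DESeq2 called 0. The replicate block added S100a9 (-0.68, adjusted p = 0.004209) and S100a11 (-0.29, adjusted p = 0.03714) in Veh against NTB, and S100a6 (-0.49, adjusted p = 0.02939), S100a8 (0.47, adjusted p = 0.01313) and S100a9 (0.45, adjusted p = 0.04254) in BRQ against Veh. That fit called 5.02% of all genes in Veh against NTB and 8.18% in BRQ against Veh. S100a8 and S100a9 lay in the free RNA range in this class.

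HSC/MPP-like cells, tested in 8 mice without Veh replicate 2, gave no call for any of the 7 members. S100a8 was at 1249, 320 and 2027 TMM-scaled CPM in NTB, 1003 and 608.1 in Veh and 1953, 1850 and 1468 in BRQ. BRQ lay above Veh, with a log2 fold change of 1.10 ± 0.32 that did not pass (adjusted p = 0.4085), and S100a9 gave 1.15 (adjusted p = 0.3383). The sum of the 14 neutrophil markers was also higher in BRQ than in Veh, at 339.8 to 1435 CPM in NTB, 427.5 to 748.2 in Veh and 1199 to 1634 in BRQ, with Il1b at 0 in at least 1 NTB and 1 Veh mouse. Camp, at 77.43 to 287.3 CPM in Veh and 409.1 to 655.7 in BRQ, and Ngp, at 98.4 to 192.1 and 350.5 to 617, were apart, whereas Ltf (35.49 to 37.52 and 32.58 to 38.43) and Retnlg (6.596 to 22.58 and 4.124 to 19.88) overlapped, and the part of these markers in the difference was not tested. In Veh against NTB, BRQ against Veh and BRQ against NTB, 1, 3 and 2 members were under an unadjusted p of 0.05, DESeq2 called 0, and 2.54%, 0.0389% and 4.32% of all genes were called.

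The basophil, mast cell and eosinophil class, tested in 7 mice without NTB replicate 1 and Veh replicate 2, gave no call among 6 members. Of 5684 genes, edgeR called 0 in each comparison (0%, 0% and 0%), with 326, 188 and 263 at an unadjusted p under 0.05, and DESeq2 called 0. The members under that p were 1, 2 and 1.

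With the cells of a mouse summed irrespective of class, the calprotectin genes were lower and S100a6 was higher in Veh than in NTB. S100a8 was at 26780, 35180 and 40660 TMM-scaled CPM in NTB, 16940, 16330 and 16830 in Veh and 14760, 12120 and 8596 in BRQ. These groups did not overlap, with log2 fold changes of -1.03 ± 0.19 in Veh (adjusted p = 0.001809) and -1.53 ± 0.19 in BRQ (adjusted p = 0.0009939) against NTB. S100a6 was at 147.5, 242.3 and 212.4 in NTB, 254.6, 588.2 and 726.6 in Veh and 325, 305.8 and 448.8 in BRQ, and the 1.37 of Veh against NTB passed (adjusted p = 0.006368). In these sums 31.2%, 4.07% and 22.7% of genes were called, against 3, 0 and 2 of the 7 members; in BRQ against Veh 2 members were under an unadjusted p of 0.05 in edgeR's fit, and DESeq2 was not run on these sums. In such sums more cells of a type and more RNA per cell cannot be told apart.

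**Figure D5:**
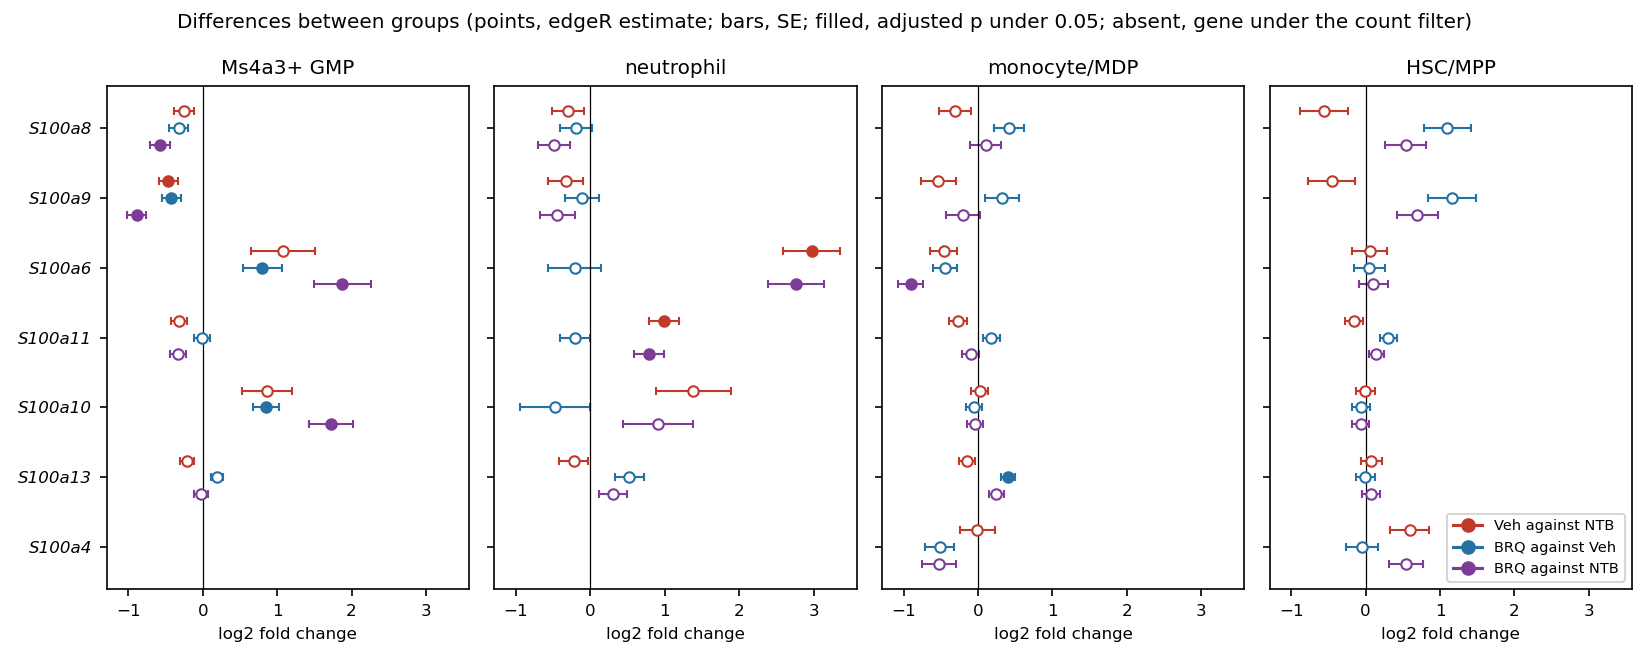
Log2 fold change ± SE of each S100 gene in Ms4a3+ GMPs and in neutrophil-like, monocyte/MDP-like and HSC/MPP-like cells, for Veh against NTB, BRQ against Veh and BRQ against NTB; filled points had an adjusted p under 0.05 and absent points were under the count filter. S100a6 stands at 2.97 and 2.76 against NTB in neutrophil-like cells and at -0.90 for BRQ against NTB in monocyte/MDP-like cells.

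Among 15 receptors and binding partners of S100 proteins, 9 were tested in Ms4a3+ GMPs, of which 1 rose and 1 fell in Veh against NTB, 4 rose in BRQ against Veh and 3 rose in BRQ against NTB, beside 11.3%, 13.4% and 6.01% of all genes called in either direction. Their median log2 fold changes were -0.18, 0.18 and 0.10, beside -0.01, 0.00 and 0.00 over all genes. Anxa1, the partner of S100A11, was at 141.7, 87.2 and 105.4 TMM-scaled CPM in NTB, 98.04, 78.35 and 69.31 in Veh and 281.9, 159.6 and 423.7 in BRQ. It was above both other groups in every BRQ mouse, with a log2 fold change of 1.79 ± 0.22 against Veh (adjusted p = 7.328e-06). Anxa2, the partner of S100A10, was at 26.16, 30.74 and 30.81 in NTB, 24.66, 31.97 and 26.21 in Veh and 43.25, 33.03 and 45.63 in BRQ, and rose by 0.64 in BRQ against Veh. Cacybp, which encodes the calcyclin-binding protein, was at 157.9 to 189.5 in NTB and 252 to 280.5 in Veh and rose by 0.60 ± 0.09 (adjusted p = 0.0002302).

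In neutrophil-like cells 10 of the partners were tested, and 4 rose and 1 fell in Veh against NTB, 0 changed in BRQ against Veh and 3 rose in BRQ against NTB, beside 15.1%, 0.0346% and 6.7% of all genes called. Among those that rose in Veh were Tlr4, a receptor of calprotectin (1.36), Anxa2 (1.65) and the adhesion receptor gene Mcam (3.59), whereas Cybb, which encodes the catalytic subunit of the phagocyte oxidase, fell by 0.88. Within clusters these rises were not called, and Mcam was under the count filter in each: of 8 partners tested, 2 fell in Veh against NTB in cluster 1, Cacybp rose in cluster 3 (0.78), and edgeR called 0 in cluster 6, where Anxa1 and Anxa2 were under an unadjusted p of 0.05 and DESeq2 called Anxa1. In BRQ against Veh, 4 of 8 rose in cluster 1 beside 5.59% of all genes called there, among them Anxa1 (0.84) and Myh9, the myosin gene (0.64), where 0 changed over all neutrophil-like cells. Within cluster 1 Cybb was at 1006 and 1094 CPM in NTB, 366.5, 238 and 226.6 in Veh and 803.5, 811 and 912.4 in BRQ. Veh stood apart from both other groups, with log2 fold changes of -1.92 in Veh against NTB and 1.60 in BRQ against Veh. The marker sum and Ly6g of cluster 1, given above, were also lowest in Veh, as were Lcn2, Ltf and Retnlg. Il1b was instead higher in Veh than in BRQ, and Camp, Ngp, Cebpe and Fcnb overlapped between them. The part of these markers in the Cybb difference was not tested. In monocyte/MDP-like cells 1 of 9 rose in Veh against NTB, 2 rose in BRQ against Veh (Anxa1 by 0.73 and Cybb by 0.84), and in BRQ against NTB 2 rose and Ahnak, whose product binds S100A10 with annexin A2, fell by 1.01, beside 3.6%, 5.34% and 3.03% of all genes called in these comparisons. In HSC/MPP-like cells 1, 0 and 3 of 9 rose, beside 2.54%, 0.0389% and 4.32% of all genes, and in the basophil class none of 7 partners and 0% of all genes were called.

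Of 10 transcription factor genes that act on S100a8 and S100a9 or in the myeloid line, all were tested in neutrophil-like cells and 6 rose in Veh against NTB, where 15.1% of all genes were called and their median log2 fold change was 0.85 beside -0.05 over all genes. They were Spi1, which encodes PU.1 (0.93), Cebpb (1.72), Cebpd (0.78), Irf7 (2.60), Stat3 (1.12) and Hif1a (1.71). Cebpb was at 162, 142.6 and 106.3 CPM in NTB, 313.2, 570.9 and 472.5 in Veh and 241.2, 260.8 and 355.9 in BRQ, with NTB below all tumor-bearing mice. In BRQ against NTB 2 rose, Cebpb by 1.08 and Irf7 by 2.22, and in BRQ against Veh 0 changed, beside 6.7% and 0.0346% of all genes called. Of the 6 that rose in Veh, Cebpb alone was called within a cluster, where it rose by 0.81 in cluster 1 and by 0.69 in cluster 3 (1 of 8 factors tested in each), and edgeR called 0 of 6 in cluster 6, with 0 at an unadjusted p under 0.05 and 0 called by DESeq2. Cebpe, the factor of granule genes, fell by 1.60 in cluster 1.

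In Ms4a3+ GMPs 9 of these factors were tested, and 11.3%, 13.4% and 6.01% of all genes were called in Veh against NTB, BRQ against Veh and BRQ against NTB. Cebpb rose by 0.36 in Veh against NTB and fell by 0.30 in BRQ against Veh, where Stat3 rose by 0.28, and none was called in BRQ against NTB. In monocyte/MDP-like cells Cebpd rose by 0.45 in BRQ against Veh, where 5.34% of all genes were called. In HSC/MPP-like cells it rose by 1.41 in BRQ against NTB, where 4.32% were called. None of 8 factors and 0% of all genes were called in the basophil class. Of 9 other S100 genes only S100a1 passed the count filter in any of these populations. It fell by 0.33 in Ms4a3+ GMPs in Veh against NTB (11.3% of all genes called), and in monocyte/MDP-like cells it rose in BRQ by 0.59 against Veh and by 0.45 against NTB (5.34% and 3.03% called). In neutrophil clusters it rose by 0.72 in Veh and by 1.14 in BRQ against NTB in cluster 3 (5.59% and 9.36% of all genes called), and by 1.34 in BRQ against NTB in cluster 6 (2.52% called).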

How the data were processed

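The authors deposited UMI counts per gene and cell barcode, and hashtag counts, for 3 pools of c-Kit-enriched bone marrow; per the labels the reads were processed with Cell Ranger 6.0.0 against mm10 and analysed with Seurat. No per-cell annotation was used here. Barcodes with 500 to 7500 detected genes and at most 15% mitochondrial UMIs were kept (32762) and given to mice with HTODemux of Seurat 5.3.0 (positive quantile 0.99). Barcodes positive for several or no hashtags entered the clustering and the levels of whole clusters but no value by mouse, and Scrublet was run and used as an alternative only. Clusters were drawn with scanpy 1.11.5 (2000 variable genes without S100 genes, 30 components, 20 neighbours, leiden resolution 0.8) and named from fixed markers. UMIs were summed per mouse where at least 20 cells were present, and tested with edgeR 4.0.16 (TMM, filterByExpr, quasi-likelihood test, Benjamini-Hochberg over all genes tested); DESeq2 1.42.0 was an alternative, and the tests were tried on simulated data. Neighbouring classes were compared by exact sign-flip permutation tests.

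Named genes were the 7 members, called genes of the fixed lists (1 listed gene is counted but its values are not reported here), and for each member the 3 genes outside the family most like it over clusters with at least 50 cells (CPM of at least 50 in a cluster). The members and lists were chosen with earlier results of these data known. The labels put 1 mouse of each group in each pool, which pairs the samples. Deviations from group means of same-pool mice had a median correlation of 0.08811 over 9 pairs in Ms4a3+ GMPs and 0.1229 in neutrophil-like cells, and those of mice of different pools -0.0456 and -0.08302. Alternatives are listed in the closing section. Columns of other samples numbered 0.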

Additional observations from a re-analysis of the deposited data

Results flagged for a closer look

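S100a6 in BRQ against NTB moved in opposite directions in different cells. The log2 fold change was 1.878 in Ms4a3+ GMPs and 2.763 in neutrophil-like cells, but -0.9023 in monocyte/MDP-like cells, and within every pool the BRQ mouse stood above the NTB mouse in GMPs and neutrophil-like cells and below it in monocyte/MDP-like cells. The difference was not tested. In Ms4a3+ GMPs the change was 0.18 (adjusted p = 0.8348, edgeR) outside the mixed cluster, and within neutrophil clusters 1, 3 and 6 it was 0.32, -0.47 and 1.20, of which only that in cluster 6 was called (adjusted p = 5.114e-05).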

How the results depend on the processing

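Of the pairs of member and population, 3 were called in Veh against NTB (6.95% of all genes), and 9 with no filter on low counts (5.13%), 6 with an Ms4a3 limit of 2.5 (9.8%), 0 with equal cells per cluster (3.32%), 10 with the replicate block (10.3%) and 2 to 7 without 1 mouse (2.46% to 9.69%; 7 without Veh replicate 1, 5 without BRQ replicate 3). In BRQ against Veh 4 were called (4.27%), and 11 with no filter (2.78%), 9 with the block (6.55%) and 2 to 6 without 1 mouse (2.74% to 4.89%; 2 without Veh replicate 3 or BRQ replicate 2). In BRQ against NTB 7 were called (4.35%), and 2 with the limits of 500 to 7500 applied to UMIs instead of genes, where 12 pairs could be fitted (18.6%), 8 with the block (8.15%) and 5 to 8 without 1 mouse (1.43% to 5.01%). Changes that turned sign with equal cells per cluster were S100a8 (0.0615, BRQ against NTB) and S100a9 (0.0737, Veh against NTB) in Ms4a3+ GMPs, and S100a11 (-0.0522 in Veh, -0.0267 in BRQ) and S100a6 (-0.10 in Veh) against NTB in neutrophil-like cells. In neutrophil cluster 3 S100a6 (-0.11 in Veh, -0.47 in BRQ) and S100a11 (-0.0228 in Veh) turned, as did S100a6 in cluster 1 (-0.0434 in Veh). S100a6 in Ms4a3+ GMPs turned in BRQ against Veh (-0.0846) without cells that Scrublet marked. The cause was not tested. Mean S100a8 in erythroid-like cells was 38.6 UMIs, and 10.86 to 45.01 under the alternatives. Assigning cells by a hashtag ratio left too few cells for any fit. The splits by cluster, by bins of UMIs per cell and outside the mixed cluster, and the sum over all cells, were added after seeing the data. Few UMIs limit S100a4 and, in NTB, S100a10 in GMPs.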
